A study of Mus musculus with 2 samples.

Results

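The miR-30 family comprises 6 microRNA (miRNA) genes of the mouse genome, Mir30a, Mir30b, Mir30c-1, Mir30c-2, Mir30d and Mir30e, out of 2202 miRNA genes counted. They were chosen by gene symbol, through the Ensembl identifier of each row, and paired by locus: Mir30a with Mir30c-2 on chromosome 1, Mir30e with Mir30c-1 on chromosome 4, and Mir30d with Mir30b on chromosome 15. Their levels were measured by small RNA sequencing in gastrocnemius, the main calf muscle, of B6CASTF1/J males aged 25 days. B6CASTF1/J animals are first-generation hybrids of C57BL/6J and the wild-derived CAST/EiJ strain. There was 1 group, with 2 libraries numbered as biological replicates. The labels number the males separately but assign a common donor identifier, so the spread between the 2 libraries, which the SDs measure, may be technical. The data therefore give the level of each gene, the balance within each locus and the difference between the libraries, and hold no contrast between conditions.

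A miRNA gene is transcribed as part of a longer primary transcript from which a hairpin is cut. Dicer then releases a duplex of a 5p and a 3p arm, and the arm loaded into an Argonaute protein represses mRNAs that pair with its seed, bases 2 to 8. The miR-30 family is expressed in many tissues. In the heart it is known for repressing the message of connective tissue growth factor, a driver of fibrosis, and in cultured myoblasts for promoting differentiation.

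Mature sequences of 4 of the 6 members were matched in the RefSeq miRNA table (build GRCm38.p6), and Mir30b and Mir30d are named without a sequence. The 5p arms are shown because they carry the family seed, and the 3p arms because they separate the members that the 5p arm does not. Sequences run 5′ to 3′, and capitals mark the seed.
miR-30a-5p: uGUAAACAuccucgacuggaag
miR-30e-5p: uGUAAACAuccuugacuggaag
miR-30c-5p (from both Mir30c-1 and Mir30c-2): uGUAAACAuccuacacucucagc
miR-30a-3p: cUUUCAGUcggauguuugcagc
miR-30e-3p: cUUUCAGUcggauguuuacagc
miR-30c-1-3p: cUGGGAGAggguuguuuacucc
miR-30c-2-3p: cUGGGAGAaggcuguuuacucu

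All of these 5p arms share the seed GUAAACA. Counting from the 5′ end, miR-30a-5p and miR-30e-5p differ by the single substitution C13U, and their 3p arms by G18A. Between miR-30a-5p and miR-30c-5p the substitutions are C13A, G14C, G18C, G19U and A20C, so the first 12 bases are identical in the family members shown. The 5p arm of Mir30c-1 is identical to that of Mir30c-2 over all 23 bases, whereas their 3p arms differ by G9A, U12C and C22U. The 3p seed divides the shown members into UUUCAGU (Mir30a and Mir30e) and UGGGAGA (Mir30c-1 and Mir30c-2). Searched on the transcribed strand, the letters GTAAACA of the family seed occur in 14 of 2202 annotated hairpins (0.636%), the 6 members among them. On either strand they occur in 28 hairpins (1.27%). That match describes letters and not function.

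How far these sequences are shared bears on the counts, since reads with several alignments were kept out of the gene rows. They were 69.8% of the reads of replicate 1 and 71.8% of those of replicate 2. Every 20-base window of miR-30c-5p, 4 of 4 for each gene, recurs in the hairpin of the other Mir30c gene. No 20-base window of the other arms shown recurs in an annotated hairpin at another place. At 16 bases, 2 of the 7 windows of miR-30a-3p and of miR-30e-3p recur elsewhere, and 0 of the 7 windows of either 5p arm. These counts are of exact matches. With mismatches allowed, miR-30a-5p is 1 base away from a stretch of the Mir30d hairpin and of the Mir30e hairpin. The mismatch settings of the alignment are not known here, so placement between these genes was not tested. Over whole hairpins, the longest stretch shared with an annotated miRNA gene at another place was 28 bases for Mir30c-1 and Mir30c-2 (with each other). It was 18 bases between Mir30a and Mir30e, 18 bases between Mir30b and the Mir30c genes, and 16 bases between Mir30d and Mir30e. Reads identical to miR-30c-5p can thus be placed at 2 annotated loci, and the rows of Mir30c-1 and Mir30c-2 hold only reads placed at a single locus. The file gives 1 count per gene and no count per arm.

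At all 3 loci the member that leads in the direction of transcription is of the Mir30a, Mir30d and Mir30e group, and the member that follows is Mir30b or a Mir30c gene. On mm10, Mir30a lies at chr1:23272269-23272339 on the plus strand, with no other gene of the GENCODE M21 annotation overlapping it. Mir30c-2 lies 19361 bases further on, at chr1:23291701-23291784, inside the exon of the long noncoding gene Gm27028. Mir30e (chr4:120772606-120772697, minus strand) and Mir30c-1 (chr4:120769534-120769622) are 2983 bases apart. Both lie in introns of Nfyc, which encodes a subunit of the CCAAT-binding factor NF-Y, and 6 of the 10 annotated Nfyc transcripts span each hairpin. Mir30d (chr15:68341208-68341289, minus strand) lies inside an exon of the long noncoding gene Gm20732. Mir30b (chr15:68337415-68337510) follows after 3697 bases and overlaps the processed transcript Gm26621 by 16 bases. Mir30a and Mir30c-2 are thus the most widely spaced of the pairs. In this annotation only the Nfyc pair on chromosome 4 lies within a shared gene.

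**Figure D1:**
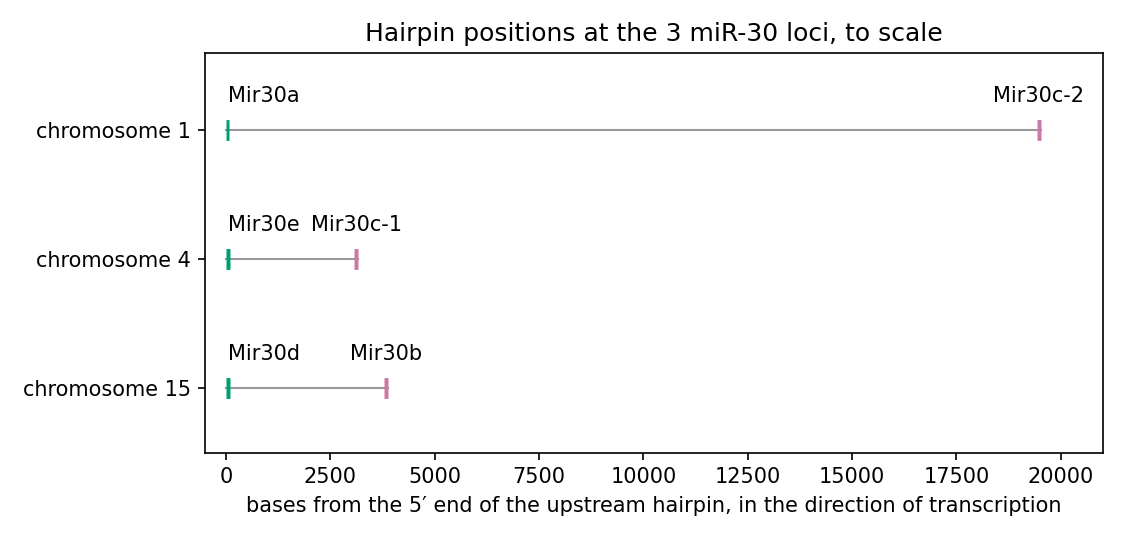
Positions of the 6 hairpins, drawn to scale as bases from the 5′ end of the upstream hairpin (x axis), with 1 row per locus. Green marks the leading member and pink the following member; the gap is 19361 bases on chromosome 1, 2983 on chromosome 4 and 3697 on chromosome 15.

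Among reads placed at a single locus, the family was carried almost entirely by the leading members. The rows of Mir30c-1 and Mir30c-2 lack reads that align to both genes, such as those identical to miR-30c-5p. Depth was 1491341 gene counts in replicate 1 and 2028332 in replicate 2, and levels are given as counts scaled to a total of 1000000 gene counts (CPM). Intervals are exact 95% intervals (Clopper-Pearson). Like the tests they cover counting error alone, and copies made by PCR are not separate molecules. Of all gene counts, 3.52% (interval 3.49 to 3.55) came from the family in replicate 1 and 3.89% (3.86 to 3.92) in replicate 2. Mir30a, Mir30d and Mir30e together made up 98.8% of family counts in replicate 1 and 98.7% in replicate 2. The remaining 1.17% and 1.33% came from Mir30b, Mir30c-1 and Mir30c-2.

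Mir30a was the highest member in both libraries and ranked 14 among the 2202 genes by mean CPM. It had 27252 counts (18274 CPM) in replicate 1 and 39132 counts (19293 CPM) in replicate 2. Mir30d, at rank 21, had 13764 counts (9229 CPM) and 20858 counts (10283 CPM). Mir30e, at rank 25, had 10796 counts (7239 CPM) and 17892 counts (8821 CPM). These 3 genes kept the order Mir30a, Mir30d, Mir30e in each library, and no value of a lower one reached a value of the next. The step from Mir30a to Mir30d was 1.98-fold in replicate 1 and 1.88-fold in replicate 2. The step from Mir30d to Mir30e was smaller, 1.27-fold and 1.17-fold, and the highest Mir30e value lay just below the lowest Mir30d value.

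The following members stood far lower in the gene rows, which for the Mir30c genes lack reads aligned to both of them. Mir30b had 254 counts (170 CPM) in replicate 1 and 589 counts (290 CPM) in replicate 2. Mir30c-2 had 257 counts (172 CPM) and 307 counts (151 CPM). Mir30b and Mir30c-2 were level in replicate 1 and 1.92-fold apart in replicate 2, so their ranges overlapped and their order was not fixed. Mir30c-1 was the lowest member, with 105 counts (70.4 CPM) and 155 counts (76.4 CPM), and no value of it reached those of Mir30c-2. Between Mir30e and Mir30b lay the widest step of the family, 42.5-fold in replicate 1 and 30.4-fold in replicate 2. Per 100 bases of annotated hairpin, which run from 71 bases for Mir30a to 96 for Mir30b, mean CPM was 26455 for Mir30a, 11898 for Mir30d and 8728 for Mir30e. On the same scale it was 240 for Mir30b, 193 for Mir30c-2 and 82.5 for Mir30c-1, in the order found without the length.

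**Figure D2:**
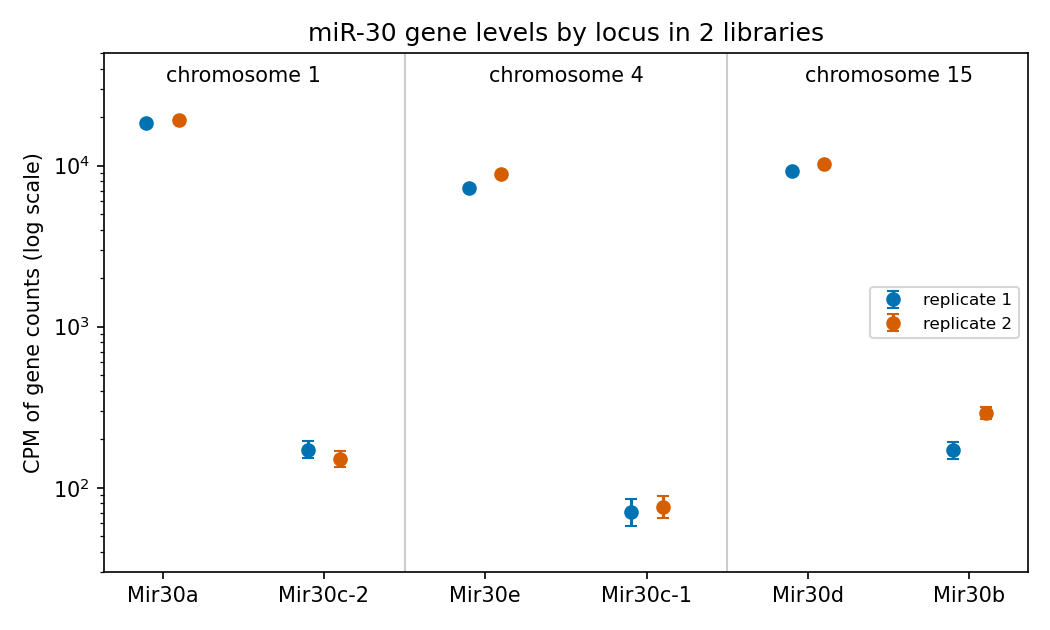
CPM of gene counts on a log axis for the 6 members, grouped by locus; points are single libraries and bars exact 95% intervals of counting error, hidden by the point where narrow. The leading members sit between 7239 and 19293 CPM and the following members between 70.4 and 290 CPM in both libraries.

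By locus, chromosome 1 contributed most. Its pair made up 52.5% of family counts in replicate 1 (interval 52.0 to 52.9) and 49.97% in replicate 2 (49.6 to 50.3). The chromosome 15 pair made up 26.7% and 27.2%, and the Nfyc pair on chromosome 4 made up 20.8% and 22.9%. The order of the loci was the same in both libraries, and followed the order of their leading members.

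Within each locus the leading member exceeded its neighbour by a wide margin in reads placed at a single locus. Mir30a counts were 106 times those of Mir30c-2 in replicate 1 and 127 times in replicate 2, a log2 ratio of 6.86 ± 0.19 (SD, n = 2). Mir30e counts were 103 and 115 times those of Mir30c-1, a log2 ratio of 6.77 ± 0.12. Mir30d counts were 54.2 and 35.4 times those of Mir30b, a log2 ratio of 5.45 ± 0.43. The Mir30d and Mir30b pair was thus the least uneven of the 3 in each library. Mir30b shares no 20-base stretch of its hairpin with another annotated miRNA gene, unlike the Mir30c genes, but shares 18 bases with them. Whether reads were lost from the Mir30b row was not tested. Reads identical to miR-30c-5p fit both Mir30c genes and are in neither row, so the Mir30c counts in these ratios lack them. How far the missing reads change the ratios was not tested.

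The balance within a locus needs no scaling between libraries, and it was compared by a two-sided Fisher's exact test on the counts of the 2 members, adjusted over the 3 loci. On chromosome 15, Mir30b made up 1.81% of the counts of its locus in replicate 1 (interval 1.60 to 2.05) and 2.75% in replicate 2 (2.53 to 2.97). This pair differed between the libraries (log2 ratio of Mir30d over Mir30b 5.76 in replicate 1 and 5.15 in replicate 2, Fisher's exact test adjusted p = 3.19e-08). On chromosome 1, Mir30c-2 made up 0.934% (0.824 to 1.06) and 0.778% (0.694 to 0.870), with the difference close to the threshold of 0.05 (log2 ratio of Mir30a over Mir30c-2 6.73 and 6.99, Fisher's exact test adjusted p = 0.0474). On chromosome 4, Mir30c-1 made up 0.963% (0.788 to 1.16) and 0.859% (0.729 to 1.00) and did not pass (Fisher's exact test adjusted p = 0.368). The following member thus held the larger share in replicate 2 on chromosome 15, and the smaller share there on chromosomes 1 and 4. These tests compare 2 libraries and leave out all spread beyond counting error, whether between animals or technical.

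**Figure D3:**
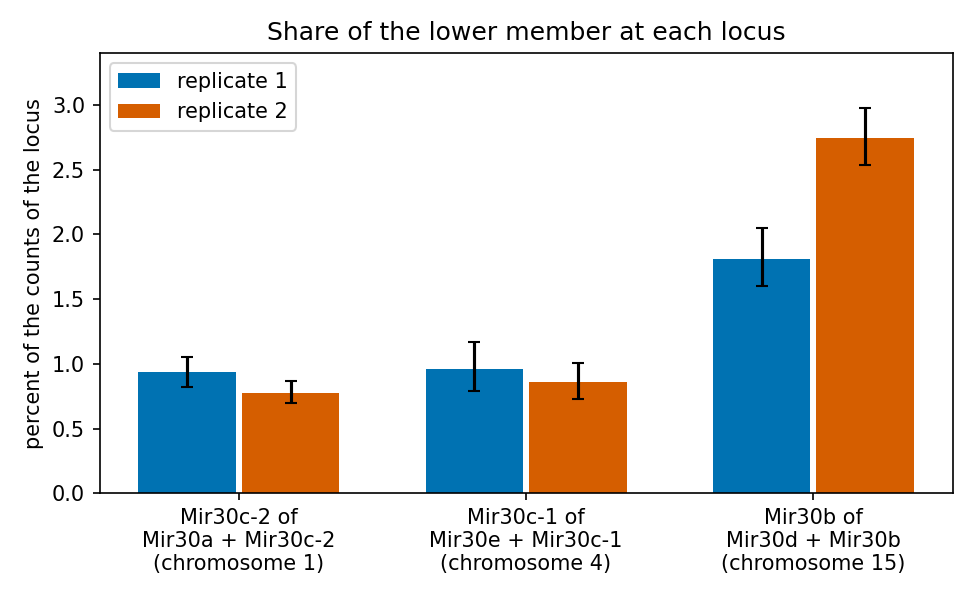
Percent of the counts of each locus that came from the following member (y axis, from 0), for both libraries, with exact 95% intervals of counting error as bars. Mir30b made up 1.81% of its locus in replicate 1 and 2.75% in replicate 2, while the shares of Mir30c-2 and Mir30c-1 stayed below 1% in both libraries.

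Mir30e was counted only where the strand of the reads was used. The annotation places another miRNA gene, Mir30f, on the opposite strand of Mir30e at identical coordinates, 92 bases long. On the strand of Mir30e there were 10796 and 17892 counts, and on the strand of Mir30f there were 0 in both libraries, which allows up to 3 counts (2.01 and 1.48 CPM). The column that disregards strand lists both genes at 0. The other 5 members have equal counts in the columns with and without strand. No member had an opposite-strand count in either library. Without strand, the chromosome 4 locus would have held 0.253% of family counts in place of 21.8%, as means over the libraries.

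Between the libraries, 4 of the 6 members were higher in replicate 2, Mir30a, Mir30d, Mir30e and Mir30b, and 0 were lower, by the exact binomial test with an adjusted p under 0.05. Counts were scaled by TMM, the trimmed mean of log ratios between the libraries. Over all 313 genes tested, 19.8% were higher in replicate 2 and 18.5% were lower. Deeply counted genes passed more often. Of the 39 genes with at least 10000 counts over both libraries, which include Mir30a, Mir30d and Mir30e, 41.0% were higher and 48.7% lower. Of the 108 genes with at least 100 and under 1000 counts, which include Mir30b, Mir30c-1 and Mir30c-2, 19.4% were higher and 13.0% lower. The family's median log2 ratio of replicate 2 over replicate 1 was 0.15, beside 0.05 over all genes tested.

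The differences of the leading members were small. The log2 ratio of replicate 2 over replicate 1 was 0.09 for Mir30a (interval 0.07 to 0.11, exact binomial adjusted p = 4.01e-14) and 0.17 for Mir30d (0.14 to 0.20, exact binomial adjusted p = 5.43e-25). Mir30e stood at 0.30 (0.26 to 0.33, exact binomial adjusted p = 4.70e-63), or 1.23-fold. Mir30b differed most, at 0.78 (0.57 to 1.00, exact binomial adjusted p = 9.23e-13), or 1.72-fold. Of the 313 genes tested, 29 had a higher ratio than Mir30b. Mir30c-2 had -0.18 (-0.42 to 0.07, exact binomial adjusted p = 0.262) and Mir30c-1 had 0.13 (-0.24 to 0.50, exact binomial adjusted p = 0.643). The members other than Mir30b, 5 of 6, lay inside the middle 50% of all ratios, from -0.24 to 0.37. With the spread between the libraries added (edgeR exact negative binomial test), 0 of 6 members passed, with the smallest adjusted p = 0.940 for Mir30b, whose unadjusted p was 0.0451. That test passed 0 of all 313 genes, 15 of them with an unadjusted p under 0.05, and its spread was estimated from the same 2 libraries.

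**Figure D4:**
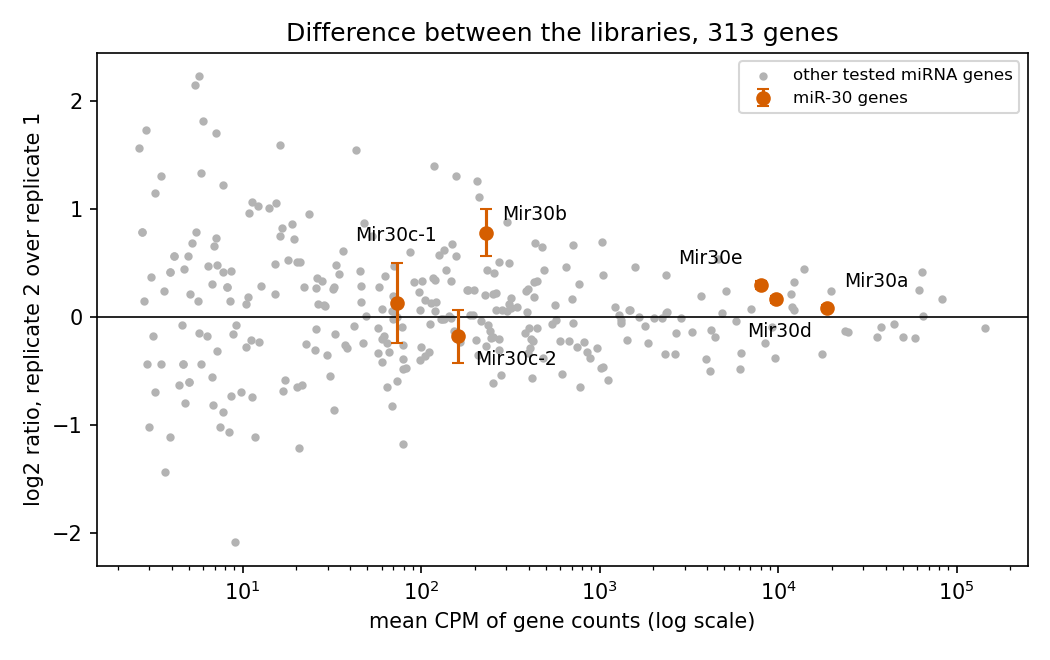
Log2 ratio of replicate 2 over replicate 1 after TMM scaling (y axis) against mean CPM (log x axis) for the 313 genes tested; orange points are the miR-30 genes with exact 95% intervals of counting error, and grey points the other genes. Mir30b, at 0.78, stands above the other members, which lie from -0.18 to 0.30.

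With counting error alone considered, the loci differed between the libraries by different amounts. Summed over its pair, the log2 ratio of replicate 2 over replicate 1 was 0.09 for chromosome 1 (interval 0.06 to 0.11), 0.18 for chromosome 15 (0.15 to 0.21) and 0.29 for chromosome 4 (0.26 to 0.33), and the intervals of counting error did not overlap. Summed over the Mir30c genes it was -0.08 (-0.28 to 0.12).

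Several marker genes of cell types that muscle holds also differed between the libraries. The summed level of 9 skeletal muscle miRNA genes was 55093 CPM in replicate 1 and 48416 CPM in replicate 2, most of it the muscle-specific Mir206 with 53367 and 46543 CPM. The other 8 genes of that list summed to 1726 and 1873 CPM. They include Mir1a-1 with Mir1a-2 and Mir133a-1 with Mir133a-2, and reads aligned to both genes of such a pair are in neither row. The sums can therefore be too low for these miRNAs, and the share of Mir206 too high. Of the 8 genes of the list that were tested, Mir206 among them, 2 were higher in replicate 2, 3 were lower and 3 were not called (median log2 ratio 0.43). The endothelial Mir126a had 78275 and 87525 CPM, and the smooth muscle and pericyte genes Mir143 and Mir145a, both higher in replicate 2, summed to 58854 and 78690 CPM. The 4 fibroblast genes summed to 11466 and 13016 CPM, most of it Mir21a (10894 and 12583 CPM), with 1 higher, 1 lower and 1 not called among 3 tested (median log2 ratio -0.38). Mir451a and Mir144 of red blood cells, both higher in replicate 2, summed to 174 and 355 CPM. The 4 leukocyte genes summed to 2665 and 2294 CPM, with 2 higher and 2 lower (median log2 ratio 0.08). Of 6 neuronal markers, the genes for miR-124 and miR-9, 5 were at 0 in both libraries. Each of these miRNAs has several genes, and a read that fits more than a single copy is left uncounted. These counts of 0 therefore cannot show whether neuronal miRNAs were absent. The liver gene Mir122 had 13.4 and 11.3 CPM, and the 2 pancreas genes summed to 10.7 and 7.40 CPM. The 7 epithelial genes summed to 223 and 254 CPM, most of it Mir203, and the other 6 to 10.7 and 10.8 CPM. Beside the calls of the marker genes, 19.8% of all 313 genes tested were higher in replicate 2 and 18.5% lower. Of the 39 genes with at least 10000 counts over both libraries, 41.0% were higher and 48.7% lower. The part of the marker genes in the differences of the miR-30 genes was not tested. In bulk tissue more cells of a type cannot be told apart from more of a miRNA per cell.

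Mir384, on the X chromosome, makes the only other miRNA of the RefSeq table with the seed of the family.
miR-384-5p: uGUAAACAauuccuaggcaaugu
It matches miR-30a-5p in its first 8 bases and differs at 10 of the 22 positions compared. Mir384 had 1 count in replicate 1 and 3 in replicate 2, too few to be tested.

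The miR-181 and miR-29 families, whose genes also lie in paired clusters, had lower levels in the gene rows. Those rows leave out reads aligned to several loci. Genes numbered as copies, such as Mir181a-1 and Mir181a-2, Mir181b-1 and Mir181b-2, or Mir29b-1 and Mir29b-2, can thus be counted too low. Such a loss would enter the family shares, medians and pair ratios given here, and its size was not tested. The miR-181 family, also 6 genes, held 0.173 ± 0.00395% of gene counts (SD, n = 2) and the 4 genes of the miR-29 family 0.135 ± 0.0461%, beside 3.70 ± 0.266% for miR-30. Median level per gene was 4130 CPM for miR-30, 292 CPM for miR-181 and 157 CPM for miR-29. The most abundant member was Mir181b-2 in the first of these families, with 674 ± 76.0 CPM, and Mir29a in the other, with 1033 ± 340 CPM. Of the miR-181 genes 2 were higher in replicate 2 and 1 was lower, and of the miR-29 genes 2 were higher and 0 lower (exact binomial test). Over their 5 pairs the log2 ratio was 6.97 ± 0.49 for Mir29c over Mir29b-2, 6.53 ± 1.28 for Mir29a over Mir29b-1 and 6.02 ± 0.08 for Mir181a-1 over Mir181b-1. It was -4.24 ± 0.59 for Mir181a-2 over Mir181b-2 and -0.15 ± 0.04 for Mir181c over Mir181d. The difference between families was not tested. Of 18 listed genes linked to muscle differentiation and energy metabolism, 17 were tested, of which 6 were higher in replicate 2 and 6 lower. Beside the calls of these lists and families, 19.8% of all 313 genes tested were higher and 18.5% lower, with larger shares among deeply counted genes.

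By distance over the 2 libraries on log2(CPM + 1), the gene nearest to Mir30a was Mir411 (distance 0.14), then Mirlet7b (0.34). Nearest to Mir30d were Mir379 (0.21) and Mir21a (0.38), and to Mir30e Mir487b (0.30) and Mir100 (0.39). Mir30b lay nearest to Mir142 (0.26) and Mir451a (0.34), Mir30c-2 to Mir467d (0.05) and Mir615 (0.11), and Mir30c-1 to Mir503 (0.09) and Mir5099 (0.10). No member had another member of the family among its 2 nearest genes. With 2 libraries this likeness reflects the level more than any pattern.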

How the data were processed

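Unnormalized counts of reads for each miRNA gene were deposited by the authors, in 1 file per library. They refer to mm10 and GENCODE M21, per the text deposited beside them. Not given in the sources used here are the aligner, the trimming and the mismatch settings. Each file holds 2202 gene rows, 4 summary rows (left out of totals) and count columns without strand, on the gene strand and on the opposite strand, as the values show. The gene-strand column was used. All identifiers matched GENCODE M21.

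CPM was computed on gene counts. The libraries were compared by an exact two-sided binomial test per gene, scaled by TMM (edgeR 4.0.16 under R 4.3.3). Tested were 313 genes whose counts summed to 10 or more, with Benjamini-Hochberg adjustment and a threshold of 0.05. The binomial test was tested on simulated data that held counting error alone, which cannot show how it behaves with further spread between libraries. Within-locus splits used Fisher's exact test (SciPy 1.17.1). DESeq2 1.42.0 gave size factors for an alternative. Sequences were compared without a genome, over annotated hairpins on both strands. Named were the 6 members, Mir384, up to 2 examples per comparison family, the 2 nearest genes of each member and genes of the marker lists. The other genes in the pairs of the comparison families were named after their values were seen. Alternatives covered scaling, filters, strand, error model, GC content, denominators and hairpin length. Members and lists were chosen with earlier results of these data known.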

Additional observations from a re-analysis of the deposited data

How the results depend on the processing

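The count of members higher in replicate 2 was 4, and stayed 4 with library totals, with DESeq2 size factors, with filters of 1 or 50 counts and with a trend over hairpin GC content removed. It was 3 in the column without strand, where Mir30e could not be tested, and 0 with the edgeR exact negative binomial test, whose construction adds the spread between the libraries. No member was lower under any of these. Over all genes, 62 of 313 tested were higher and 58 lower in the main setting. With the other scalings, filters and the GC trend removed, 54 to 64 were higher and 56 to 64 lower, of 239 to 570 tested. In the column without strand 60 of 287 were higher and 50 lower, and the negative binomial test passed 0 of 313. The family share of gene counts, 3.70%, became 0.751% with all reads in the file as the denominator and 4.33% without Mir378a in it, by construction. In the column without strand, which lists Mir30e at 0, the loci of chromosomes 1, 4 and 15 held 65.3%, 0.253% and 34.4% of family counts, and the log2 ratio of Mir30e over Mir30c-1 was at most -5.41, computed with Mir30e at 3 counts. Per base of hairpin the log2 ratio of Mir30a over Mir30c-2 was 7.10. Leaving out either library kept each share and ratio within 1 SD of its mean, which 2 libraries cannot exceed, and leaves nothing to compare between libraries. No paired analysis was possible because there is 1 group. Mir30b, Mir30c-1 and Mir30c-2 rest on 105 to 589 counts per library, which limits their precision. The counts of Mir30c-1 and Mir30c-2 can also be too low, because reads that align to both genes are in neither row.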
